A study of Mus musculus with 60 samples.

Results

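The 10 genes described here, Prkcd, Tcf7l2, Rora, Zic1, Synpo2, Plekhg1, Rab37, Lef1, Tnnt1 and Slc17a6, are enriched in the thalamus of the mouse brain and were followed through 60 RNA-seq libraries labelled as hippocampus. They are 10 of the 47643 gene symbols in the table, and all 10 were among the 15608 genes tested. They were chosen because they rise and fall together across these same libraries, so their covariation is given below as a description with no test. Values are TPM, a transcript level scaled by gene length and library total, and log2 values are log2(TPM + 0.5).

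Per the labels, female mice of 2 months received melanoma cells that cause cachexia (CAC), melanoma cells that do not (NCAC), or a mock injection (Con). Cachexia is the loss of muscle and fat in cancer, of which no measure was used here. Hippocampus was taken 2, 4, 6 and 8 wk after injection. The CAC arm had 4 libraries at 2 wk, 5 at 4 wk, 5 at 6 wk and 7 at 8 wk. The NCAC arm had 4 at 6 wk and 5 at each other time, and the Con arm 5 throughout. The sample labels give the strain as C57BL6/J and the design text gives NCI Ath/nude, and which is right was not settled. The extract protocol mentions a further tumour line, LLC, that belongs to none of the groups. The labels speak of biological replicates without tying each library to its own mouse, and the p-values reflect only how these samples scatter, which may be technical.

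The thalamus lies directly beneath the hippocampus and relays sensory and motor signals to the cortex. Its relay neurons release glutamate and load it into vesicles with the transporter encoded by Slc17a6, whereas most hippocampal pyramidal neurons use Slc17a7. Tcf7l2 and Lef1 are the transcription factors through which β-catenin acts in Wnt signalling, and both remain on in adult thalamic neurons, where Tcf7l2 helps to maintain neuron identity. Rora is an orphan nuclear receptor of sensory relay nuclei. Prkcd is a protein kinase C isoform used as a marker of thalamic relay neurons. Zic1 is a zinc-finger factor of the medial thalamus that is also made in the septum, the cerebellum and the meninges. In tissue taken whole, fewer cells of a type and less RNA per cell cannot be told apart.

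On GRCm38 with GENCODE release M21, Prkcd lies on chromosome 14 at 30595354 to 30626210 (minus strand), Tcf7l2 on chromosome 19 at 55741820 to 55933654 (plus), and Lef1 on chromosome 3 at 131110471 to 131224356 (plus). Rora lies on chromosome 9 at 68653786 to 69388246 (plus) and Zic1 on the same chromosome at 91358058 to 91365810 (minus). Slc17a6 and Tnnt1 share chromosome 7, at 51622006 to 51671119 (plus) and 4504570 to 4516382 (minus). Synpo2 lies on chromosome 3 at 123076519 to 123236149 (minus), Plekhg1 on chromosome 10 at 3740364 to 3967303 (plus) and Rab37 on chromosome 11 at 115091431 to 115162236 (plus). All 10 are protein-coding genes, and TPM counts their whole transcripts.

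The 250 bases before an annotated start of each of 3 members are shown, 5′ to 3′ on the gene's own strand, with CpG dinucleotides in capitals. They are from RefSeq on GRCm38.p6. Prkcd (chr14:30626209-30626458, minus strand) is shown because it alone passed a test over all times, Tcf7l2 (chr19:55741560-55741809, plus) as the member closest to the others, and Zic1 (chr9:91365769-91366018, minus) because replicate 1 of CAC at 2 wk was not its highest library.
Prkcd: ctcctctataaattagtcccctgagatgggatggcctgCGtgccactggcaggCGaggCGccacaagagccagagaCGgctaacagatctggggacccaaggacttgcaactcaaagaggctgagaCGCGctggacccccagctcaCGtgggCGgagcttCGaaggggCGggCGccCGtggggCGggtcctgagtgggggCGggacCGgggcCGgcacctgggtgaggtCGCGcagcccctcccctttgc
Tcf7l2: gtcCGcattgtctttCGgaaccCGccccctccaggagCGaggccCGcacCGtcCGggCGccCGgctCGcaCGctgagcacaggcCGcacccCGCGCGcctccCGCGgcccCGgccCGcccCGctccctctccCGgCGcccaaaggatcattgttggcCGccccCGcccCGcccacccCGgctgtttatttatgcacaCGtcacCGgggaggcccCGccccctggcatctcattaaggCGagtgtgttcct
Zic1: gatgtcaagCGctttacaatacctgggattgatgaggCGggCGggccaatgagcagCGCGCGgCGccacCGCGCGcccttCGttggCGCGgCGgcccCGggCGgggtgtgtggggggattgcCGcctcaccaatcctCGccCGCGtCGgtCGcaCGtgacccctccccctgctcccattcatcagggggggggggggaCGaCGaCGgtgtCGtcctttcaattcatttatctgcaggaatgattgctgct
These stretches hold 18, 30 and 27 CpG, against a median of 6 over all 32851 RefSeq start windows of the mouse and of 7 over the 15 windows of the members. Prkcd and Tcf7l2 each have another start window, not shown, with 1 and 7 CpG. RefSeq windows were matched for all members other than Rab37. The TCF/LEF core CTTTGAT and the nuclear receptor half-site AGGTCA were searched on both strands of windows from 250 bases before to 50 bases after each start, and neither motif contains the other. CTTTGAT was in 3.73% and AGGTCA in 16.3% of all windows, and each was in 0 of the 15 member windows, which says only that these letters are not there.

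The libraries held 31717025 to 41081457 reads each, recovered from the steps in the TPM values. Over the 60 libraries Tnnt1, the least counted member, had 26 to 799 reads, and Prkcd, the most highly expressed, had 746 to 7134. Markers of the labelled tissue were present in every library: Prox1 of dentate granule cells ranged from 31.8 to 89.8 TPM and Wfs1 of CA1 pyramidal cells from 63.3 to 190 TPM. Replicate 1 of CAC at 2 wk stood apart from the other 59 libraries. It was the highest library for 943 of the 15608 tested genes (6.04%) and for 9 of the 10 members. Because the members were chosen on values that include it, many results below are given both with it and without it. Where a sentence does not say so, that library was included.

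In that library Prkcd was at 149 TPM, with 13.9, 22.7 and 47.9 TPM as the lowest, median and highest of the other 59. Tcf7l2 was at 12.2 TPM (others 1.00, 1.56 and 3.88) and Lef1, its partner in the Wnt pathway, at 6.95 TPM (others 1.19, 1.85 and 2.35). The 3 signalling genes thus lay above every other library by a wide gap. Rora was at 49.0 TPM (others 10.5, 14.1 and 19.8). Slc17a6 was at 44.7 TPM (others 3.44, 10.8 and 20.8). Zic1 was the exception, at 30.0 TPM (others 3.68, 8.21 and 32.5), the third highest value of the 60.

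The other members are a muscle troponin, cytoskeletal genes and a vesicle gene. Tnnt1, the slow skeletal muscle troponin T that is also transcribed in thalamic neurons, was at 37.8 TPM (others 1.17, 1.87 and 6.13), 20.2 times the median of the rest. Rab37, a small GTPase of secretory vesicles, was at 17.9 TPM (others 0.847, 1.45 and 4.37), 12.4 times that median. Synpo2, an actin-binding protein, was at 16.0 TPM (others 1.48, 2.39 and 4.36). Plekhg1, an exchange factor for small GTPases, was at 51.9 TPM (others 5.91, 9.49 and 13.9). Across the 10 members the ratio to the median of the other 59 ran from 3.48 for Rora to 20.2 for Tnnt1. Only 22 of 15608 genes (0.141%) were over 2 times as high there as in every other library, and 9 of them were members.

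**Figure D1:**
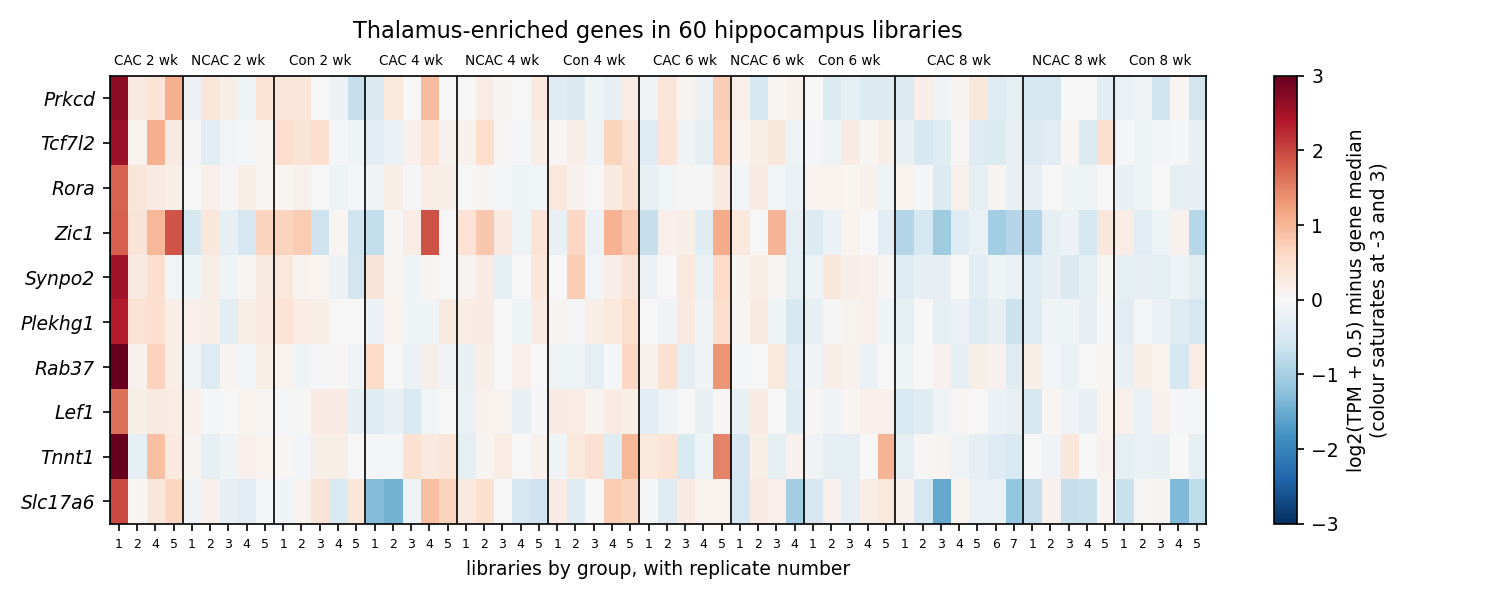
Heat map of log2(TPM + 0.5) minus the gene's median for the 10 members (rows) in the 60 libraries (columns, by group and replicate). Replicate 1 of CAC at 2 wk is the reddest column in 9 of the 10 rows, and Zic1 is slightly higher in replicate 5 of that group and in replicate 4 of CAC at 4 wk.

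The mean of the 10 members on the log2 scale was 4.91 in that library and 1.98 to 3.13 in the other 59, with a median of 2.41. Replicate 5 of CAC at 6 wk came next (3.13), where Tnnt1 was at 6.13 TPM, Rab37 at 4.37 TPM and Zic1 at 18.3 TPM. Replicate 4 of CAC at 2 wk (3.03) and replicate 5 of Con at 4 wk (2.97) followed, so that the upper end held tissue of mock-injected mice too. Replicates 7 and 3 of CAC at 8 wk were lowest (1.98 and 2.05), with Slc17a6 at 3.44 TPM in replicate 3. Group medians of this mean ran from 2.17 in CAC at 8 wk to 2.98 in CAC at 2 wk, or 2.93 there without replicate 1. The lowest CAC library at 2 wk (2.63) was above the highest of CAC at 8 wk (2.39), NCAC at 8 wk (2.53), Con at 8 wk (2.32), NCAC at 6 wk (2.58) and Con at 6 wk (2.51), and it overlapped with NCAC (up to 2.65) and Con (up to 2.67) at 2 wk.

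Ordered by group median, CAC at 2 wk was highest for all 10 members, or for 6 of 10 without its replicate 1. The lowest group was at 8 wk for 7 members, at 4 wk for Rab37 and Lef1, and at 6 wk for Prkcd. For each member, all 11 pairs of neighbouring groups in that order overlapped in range. Group medians spanned 1.45-fold for Rora, 2.30-fold for Prkcd, 2.64-fold for Tcf7l2 and 5.50-fold for Zic1. Zic1 went from a median of 23.5 TPM in CAC at 2 wk to 4.27 TPM in CAC at 8 wk, with ranges of 11.0 to 32.0 and 3.68 to 7.11 TPM. These were its highest and lowest groups of the 12, picked from the order itself, and this pair was not tested.

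**Figure D2:**
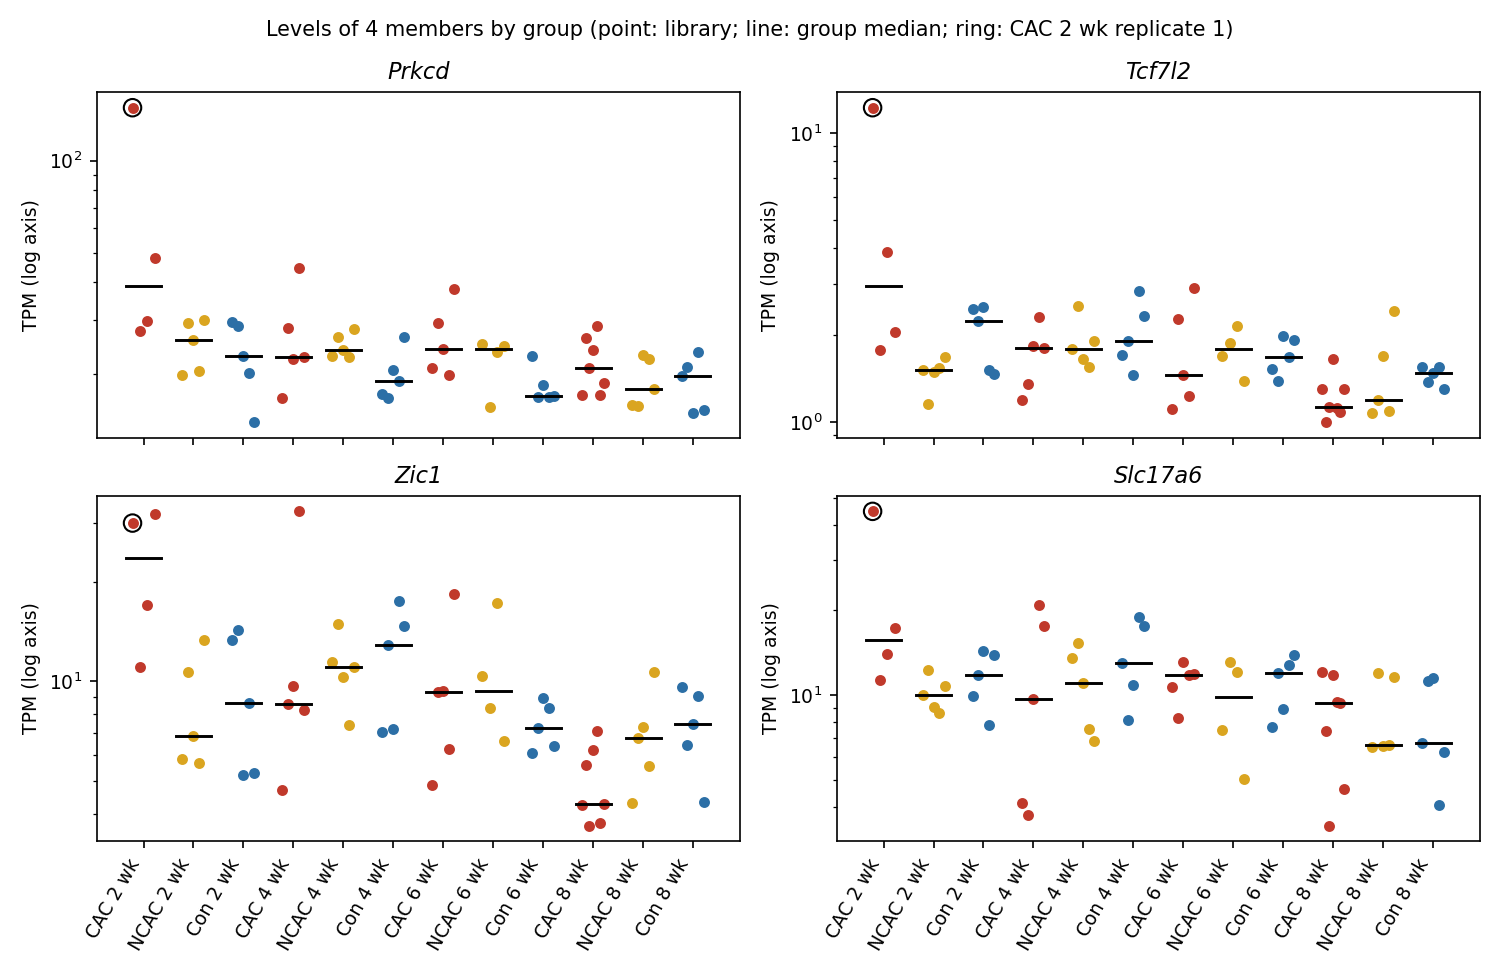
TPM (log axis) of Prkcd, Tcf7l2, Zic1 and Slc17a6 in the 12 groups, with 1 point per library and a line at the group median. The ringed library, replicate 1 of CAC at 2 wk, is apart from all points for 3 of the genes, while Zic1 has 3 libraries at 30.0 to 32.5 TPM.

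The members covaried, as the choice of them required. The 45 pairs had Pearson r from 0.416 to 0.879 with a median of 0.694 over the 60 libraries. Without replicate 1 of CAC at 2 wk the range was 0.070 to 0.725 and the median 0.409, still with all 45 pairs positive. With group means subtracted the median was 0.620, or 0.338 without that library. All libraries share the TPM scaling, and r describes these samples only.

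The rank correlation of each member with the mean of the other 9 shows which genes follow the rest once single high libraries weigh less. Over all 60 libraries Spearman's rho was 0.814 for Tcf7l2, 0.762 for Plekhg1, 0.743 for Zic1, 0.695 for Synpo2 and 0.639 for Rora. It was 0.559 for Lef1, 0.551 for Slc17a6 and 0.412 for Prkcd. Tnnt1 (0.309) and Rab37 (0.245) ranked lowest, although they had the largest ratios in the library that stood apart. Among single pairs, Plekhg1 with Rora had r 0.879 with that library and 0.704 without it. Zic1 with Tcf7l2 had 0.714 and 0.725, and Lef1 with Rab37 had 0.630 and 0.070.

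**Figure D3:**
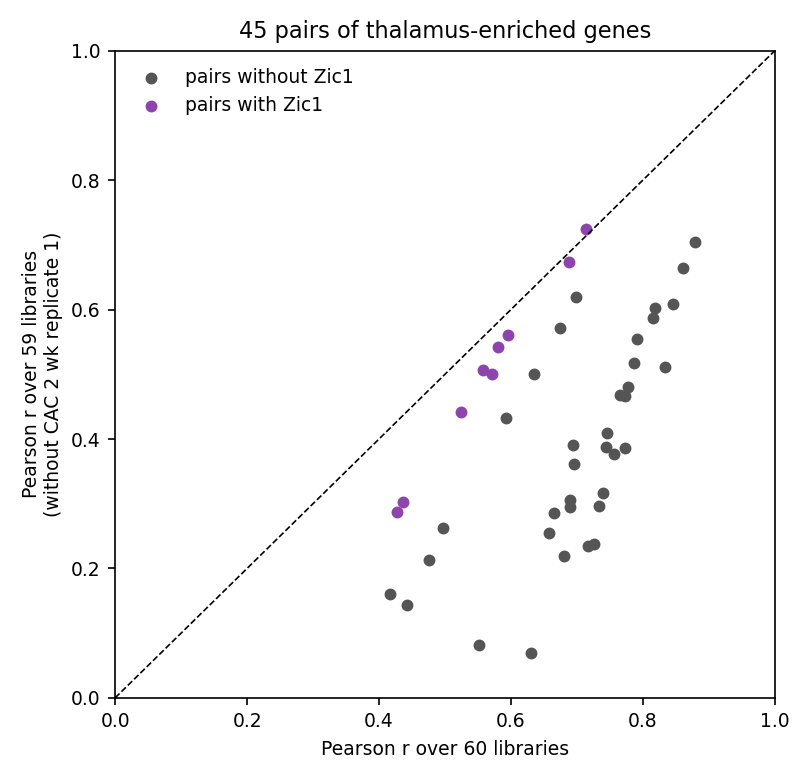
Pearson r of the 45 pairs of members over 60 libraries (horizontal) and over 59, without replicate 1 of CAC at 2 wk (vertical); the dashed line marks equal values. Pairs that include Zic1 lie near the line, and most others fall below it, down to 0.070.

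Genes outside the 10 with the most similar pattern were sought by Pearson r with the member mean on deviations from group means over 60 libraries. Amotl1, which encodes an angiomotin-like scaffold, led with r 0.929, and 0.845 without replicate 1 of CAC at 2 wk. Rgs16, a brake on G protein signalling (0.848), Ramp3, a receptor partner of the calcitonin family (0.847), Plcb4, a phospholipase C of thalamic and cerebellar neurons (0.832), and Vipr2, a receptor for vasoactive intestinal peptide (0.823), followed. Adarb1, Slitrk6, Shox2, Pdp1 and Fhdc1 had r of 0.751 to 0.771. Shox2, a homeobox factor of thalamic neurons, was at 17.7 TPM in that library and at a median of 0.155 TPM in the other 59. Rprml (-0.559), Mrpl53 (-0.521) and Echdc2 (-0.512) were at the opposite end. Without that library the 10 nearest genes held Amotl1 and Plcb4 again, beside Zic4 and Zic5. Rgs22 (0.732), Rnf152 (0.663), Ccdc40 (0.660), Dnah12 (0.655) and Vezf1 (0.649) were also among them. In that library Rgs22, Ccdc40, Dnah12 and Zic5 were below their medians in the other 59.

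A list of 16 further thalamus genes from textbook knowledge was set beside the members, of which 15 were tested. The list was chosen with earlier results of these data known, so its likeness to the members is a description. It holds Amotl1, Rgs16, Ramp3, Adarb1, Slitrk6 and Shox2, named above for their similar pattern. Of the 15 tested, 10 were highest in replicate 1 of CAC at 2 wk, among them Ramp3 at 66.8 TPM (highest of the others 12.03) and Rgs16 at 53.3 TPM (15.5). Lhx2, a factor of thalamic progenitors and of hippocampal development, was the lowest of 60 at 15.5 TPM (others 20.5 to 39.1). Calb2 and Lhx9 ranked 47 and 46 of 60, and Gbx2 had a median of 0.0825 TPM in the other 59. The list mean and the member mean had r 0.950 over 60 libraries and 0.900 over 59.

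Markers of other neighbours moved with the members in part. The 10 striatum genes summed to 1238 TPM in replicate 1 of CAC at 2 wk and to a median of 110.5 TPM elsewhere (range 92.1 to 1534). Drd1, the dopamine receptor of striatal projection neurons, was at 65.2 TPM there, against a median of 4.42. Replicate 2 of Con at 4 wk (1534 TPM) and replicate 1 of CAC at 4 wk (1521 TPM) were higher still in this list. In these 2 libraries Prkcd was at 16.7 TPM in both, Tcf7l2 at 1.90 and 1.19 TPM, and the member mean at 2.56 and 2.19. Over the 59 libraries the striatum mean and the member mean had r 0.151 and Spearman's rho 0.510. Over the same libraries r was 0.798 for the 3 other Zic genes, 0.630 for newly formed oligodendrocytes and 0.626 for the Wnt pathway. It was 0.516 for astrocytes, 0.494 for meningeal fibroblasts, 0.129 for dentate granule genes and -0.420 for CA1 genes, the lowest of all lists.

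Of 9 habenula genes tested, 0 were highest in replicate 1 of CAC at 2 wk, and the mean of the list ranked 7 of 60. The cholinergic genes Chat (5.86 TPM, median elsewhere 0.135) and Slc5a7 (6.12 TPM, median elsewhere 0.391) ranked 3 and 4, while the defining factor Pou4f1 was at 0.0223 TPM (rank 39). The reticular nucleus gene Six3 was highest of 60 there (10.7 TPM, others up to 7.73). Gad1, Pvalb, Isl1 and Ecel1 of the same list ranked 1, 2, 2 and 3 of 60. Sst went the other way and was next to lowest (126 TPM, others 125 to 673). The mean of these 6 genes ranked 2 of 60. The choroid plexus genes summed to 122 TPM against a median of 2818 TPM, with Ttr at 101.5 TPM. Barhl1 of cerebellum, Hcrt and Nr5a1 of hypothalamus, and Gata3, Sox14, Slc6a4 and En1 of midbrain averaged under 0.1 TPM over the libraries, yet Gata3 (0.288 TPM), Sox14 (0.202 TPM) and Nr5a1 (0.0983 TPM) ranked 3, 4 and 1 in this one. The mean of the midbrain list, of which 2 genes were tested, ranked 7. Genes of newly formed oligodendrocytes summed to 229 TPM (others 84.3 to 221), and those of myelinating oligodendrocytes to 3489 TPM (others 1322 to 3504). On the hippocampal side, the 6 CA1 genes summed to 304 TPM (others 284 to 480), and the 7 dentate granule genes to 135 TPM, near the median elsewhere (139). In the latter list C1ql2 was the lowest of 60 at 5.68 TPM and Prox1 ranked 11 at 56.1 TPM. The tested-gene mean ranked 58 for CA1 and 48 for dentate granule cells. The part of these other regions and cells in the members' values was not tested.

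**Figure D4:**
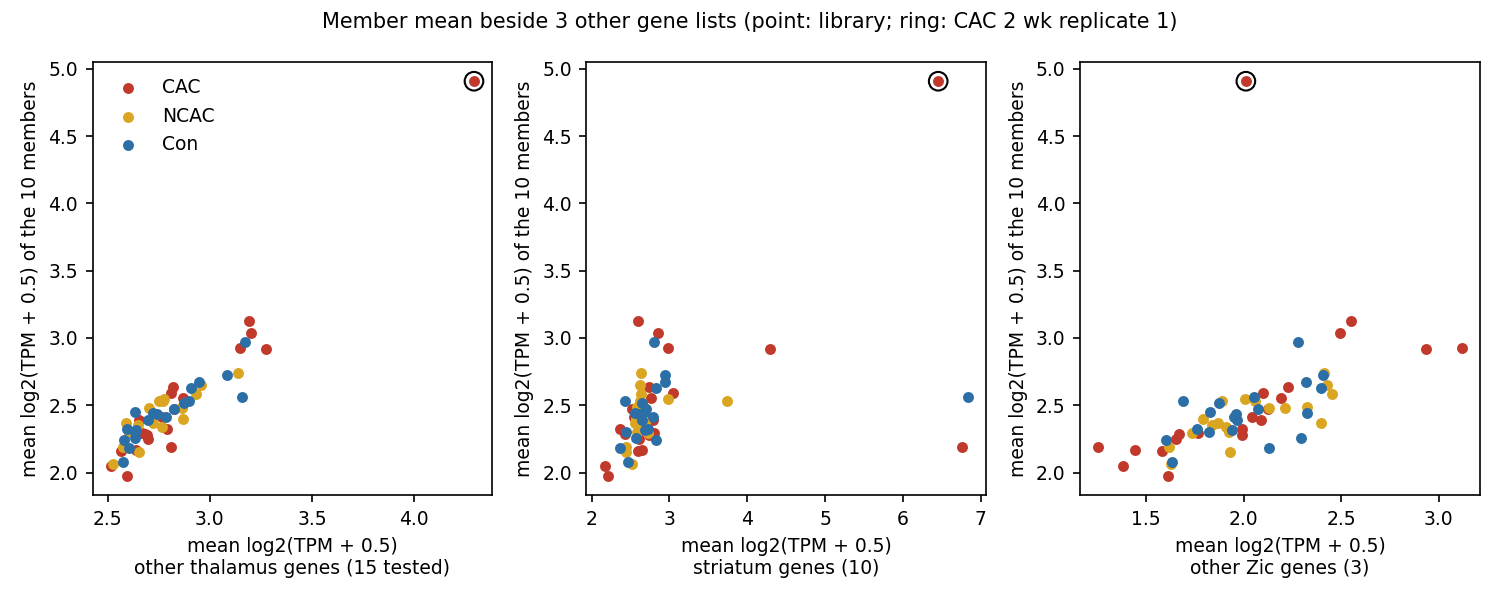
Mean log2(TPM + 0.5) of the 10 members (vertical) against that of 15 other thalamus genes, 10 striatum genes and 3 other Zic genes (horizontal), with 1 point per library coloured by arm. The ringed library is highest in the left panel, while the middle panel has 2 libraries with striatum means of 6.76 and 6.83 and ordinary member means.

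Some relatives of the members were highest in the same library. Of 7 other protein kinase C genes, 3 were highest in replicate 1 of CAC at 2 wk: Prkch was at 13.0 TPM (highest of the others 12.6), Prkcz at 135 TPM (123) and Prkcb at 298 TPM (281), while Prkca ranked 58, and the mean of the list ranked 1. Prkch is also on the list of further thalamus genes. Of all tested genes, 6.04% were highest in that library. Among Wnt pathway genes, 4 of 14 tested were highest there, led by the ligand Wnt3 at 6.13 TPM (others up to 3.57) and β-catenin, Ctnnb1, at 405 TPM (others up to 394), and Axin2 and Wnt7b were lowest of 60 at 8.74 and 21.4 TPM. The mean of the Wnt list also ranked 1. Slc17a7, the vesicular transporter of hippocampal pyramidal neurons, was at 1009 TPM, rank 55, where its relatives Slc17a6 and Slc17a8 (9.12 TPM, others up to 8.37) were highest. Rorb, a relative of Rora, was highest at 12.2 TPM (others up to 8.79). The other tested troponins, Tnnc1 and Tnnt2, ranked 36 and 50.

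The Zic genes had an order of their own. The summed level of Zic2, Zic4 and Zic5 was 27.0 TPM in replicate 5 of CAC at 2 wk and 24.1 TPM in replicate 4 of CAC at 4 wk, the 2 highest libraries, and 12.8 TPM in replicate 1 of CAC at 2 wk. Zic1 was at 32.0, 32.5 and 30.0 TPM in these libraries in turn. Prkcd was also next highest in the first 2, at 47.9 and 44.5 TPM, whereas Tcf7l2 was at 2.05 and 2.30 TPM and Tnnt1 at 2.42 and 2.41 TPM. Apart from replicate 1 of CAC at 2 wk, the 2 highest libraries of Zic1 were thus those of Prkcd and not those of Tcf7l2 or Tnnt1.

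CAC was compared with Con at 2 wk to ask whether hippocampus of mice given the cachexia-causing melanoma cells differed early. Prkcd was at 149, 27.7, 29.8 and 47.9 TPM in CAC and at 29.5, 28.7, 22.8, 20.1 and 13.9 TPM in Con. Zic1 was at 30.0, 11.0, 17.0 and 32.0 TPM in CAC and at 13.4, 14.3, 5.24, 8.64 and 5.31 TPM in Con. Both had overlapping groups. Rab37 was at 17.9, 1.62, 2.64 and 1.73 TPM in CAC and at 1.60, 1.28, 1.41, 1.48 and 1.27 TPM in Con. Rab37 and Rora did not overlap between the groups, as for 5.52% of all genes in this direction.

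In limma's fit over all 15608 genes, 6 of 10 members were called higher in CAC at 2 wk and 0 lower, beside 1.72% of all genes called higher and 3.7% called in either direction. Prkcd differed by 1.13 ± 0.27 (SE, log2, adjusted p = 0.0248), Rora by 0.65 ± 0.16, Zic1 by 1.22 ± 0.37 (adjusted p = 0.0483), Synpo2 by 0.85 ± 0.24, Plekhg1 by 0.71 ± 0.21 and Rab37 by 1.09 ± 0.31. The members' median difference was 0.81 against 0.06 over all genes. Without replicate 1 of CAC the count was 0 of 10, with 4 of 15608 genes called, and the differences in the same order were 0.60, 0.28, 1.04, 0.28, 0.21 and 0.37 (adjusted p = 0.19 to 0.46). It was also 0 without replicate 4 or without replicate 5 of Con, 3 without replicate 3 of Con, and 8 without replicate 5 of CAC. Since the members were chosen on covariation that includes this library, the count is a description.

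**Figure D5:**
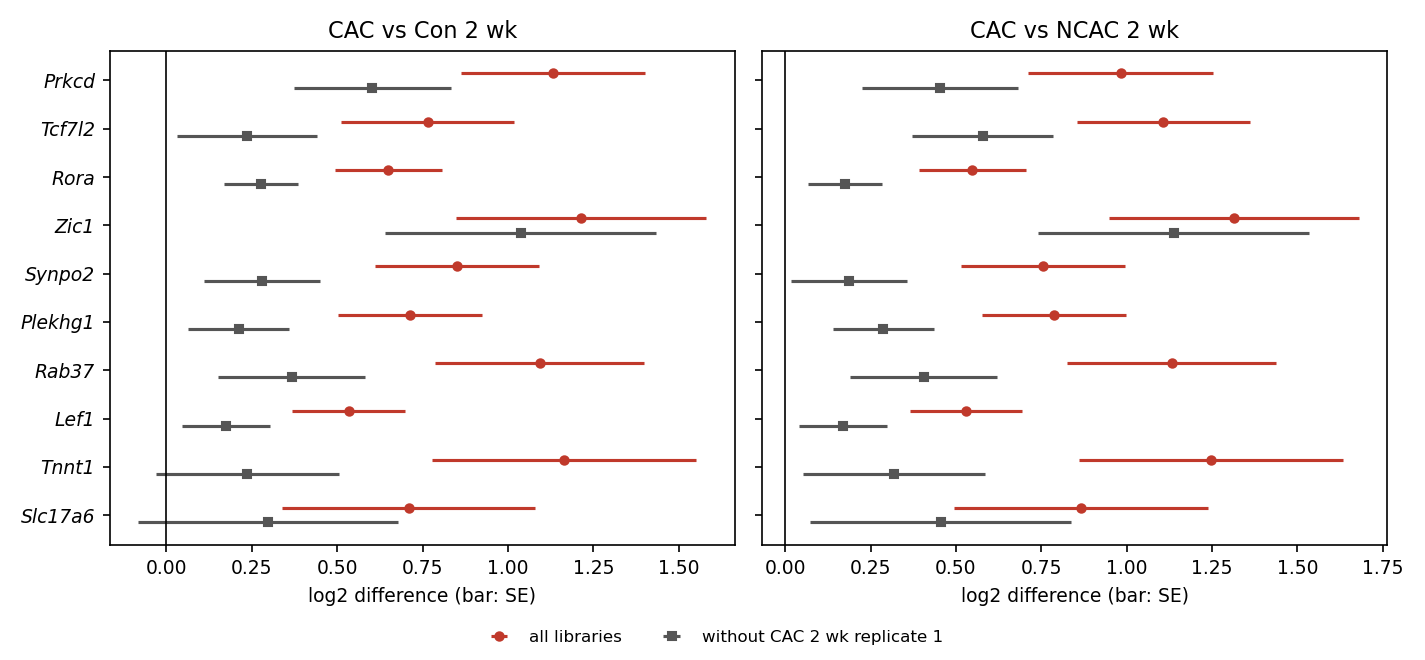
Log2 differences of the 10 members at 2 wk, CAC minus Con (left) and CAC minus NCAC (right), with SE bars, from limma on all libraries (red circles) and without replicate 1 of CAC (grey squares). All 20 differences lie above 0 in both fits and are smaller without that library, Zic1 least.

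Against the other tumour, CAC minus NCAC at 2 wk had a median of 0.92 over the members with all 10 positive. The call count was 0 of 10, as for all genes (0%), although 1083 genes and all 10 members had an unadjusted p under 0.05. Without replicate 1 of CAC only Tcf7l2 and Zic1 stayed under that p. The members were chosen on covariation that includes this library, so the count under that p is a description. Tcf7l2 was at 12.2, 1.77, 3.88 and 2.05 TPM in CAC and at 1.51, 1.16, 1.49, 1.54 and 1.68 TPM in NCAC, groups that did not overlap, as for 1.56% of genes in this direction. Its difference was 1.11 ± 0.25 (limma, adjusted p = 0.437), or 0.58 ± 0.21 without replicate 1 (adjusted p = 0.953). The median over the members without that library was 0.36. NCAC and Con differed by a median of -0.06 at 2 wk, with 0 of 10 members called and 0% of genes, and 1517 genes and 0 members at an unadjusted p under 0.05.

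At the later times no member was called in any comparison of 2 groups. In CAC against Con the background was 0.801% of genes at 4 wk, 0.25% at 6 wk and 14.5% at 8 wk. Members with an unadjusted p under 0.05 numbered 1, 0 and 0, beside 2789, 1881 and 4878 of 15608 genes. In CAC against NCAC the background was 0.0128%, 1.77% and 1.83%. There 0 members were under that p at each time, beside 2185, 2943 and 2416 genes. In NCAC against Con the background was 0% at all 3 times, again with 0 members, beside 1538, 587 and 1226 genes under that p. Lef1 had the 1 unadjusted value: at 4 wk it was at 1.34, 1.52, 1.22, 1.72 and 1.83 TPM in CAC and 2.28, 2.26, 2.06, 2.31 and 2.19 TPM in Con. These groups did not overlap, as for 1.76% of genes in this direction (-0.43 ± 0.16, adjusted p = 0.126).

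Over the mean of the 4 times Prkcd was the 1 member called in CAC against Con (0.54 ± 0.13, adjusted p = 0.00219), where 19.8% of all genes were called. The share of members, 1 of 10, was therefore below the background. Prkcd was higher in CAC at each time, by 1.13, 0.37, 0.49 and 0.19. Without replicate 1 of CAC at 2 wk it was 0.41 ± 0.10 (adjusted p = 0.00398), and over 49 alternatives it ran from 0.41 to 0.61 with the call kept in all 49. Lef1 was then called as well, lower in CAC (-0.16 ± 0.06, adjusted p = 0.0413). Rab37 was at 0.38 ± 0.14 with all libraries (adjusted p = 0.055), and 0.20 ± 0.10 without that one.

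In CAC against NCAC over the 4 times, Prkcd was again the 1 member called (0.36 ± 0.13, adjusted p = 0.0471), beside 15.7% of all genes. Without replicate 1 of CAC at 2 wk it was 0.23 ± 0.10 with an adjusted p of 0.126, and the call was lost in 27 of 48 alternatives. NCAC against Con over the 4 times had 0 of 10 members called and 0% of genes, with 379 genes and 0 members at an unadjusted p under 0.05. The 3 comparisons share libraries with each other.

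The change of the CAC minus Con difference from 2 to 8 wk was negative for all 10 members (median -0.87), with 0 called and 0.00641% of genes. Zic1 had the largest, -1.73 ± 0.49 (adjusted p = 0.206), and -1.55 ± 0.51 without replicate 1. For CAC minus NCAC the median was -0.93, with 0 called and 0.237% of genes, and for NCAC minus Con it was 0.04, with 0 called and 0%. Without replicate 1 of CAC at 2 wk the first 2 medians were -0.31 and -0.42. With all libraries, 9, 9 and 0 members had an unadjusted p under 0.05 (limma), beside 1505, 1758 and 474 of 15608 genes. Without replicate 1 of CAC at 2 wk, only Zic1 and Lef1 stayed under that p for CAC minus Con. For CAC minus NCAC only Zic1, Tcf7l2 and Plekhg1 did.

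Tissue of mock-injected mice gave the change with time in the absence of tumour cells. The 2 and 8 wk libraries are separate samples, so time since injection cannot be told apart from age or sampling. From 2 to 8 wk all 10 members differed by a negative amount in Con (median -0.25, and -0.06 over all genes, 62.8% of which were negative), with 0 called beside 9.67% of genes. With median-of-ratios scaling 2 of the 10 changed sign. Plekhg1 was at 10.8 TPM on average at 2 wk and 7.79 TPM at 8 wk (-0.46 ± 0.20, adjusted p = 0.123), and its groups did not overlap, as for 10.8% of genes in this direction. Slc17a6 averaged 11.5 TPM at 2 wk and 7.95 TPM at 8 wk (-0.57 ± 0.35, adjusted p = 0.291).

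The lists beside the members were read in the same fit. In CAC against Con at 2 wk, 2 of 6 CA1 genes were called lower, Spink8 (-1.12 ± 0.17, limma, adjusted p = 0.000597) and the POU factor Pou3f1 (-0.56 ± 0.15), and so was Sst, encoding somatostatin, of the 6 reticular nucleus genes (-0.90 ± 0.27). Prkcz was called higher (0.20 ± 0.055), the 1 call of 7 protein kinase C genes. Spink8 was still called without replicate 1 of CAC (-1.08 ± 0.19, adjusted p = 0.0112), and Pou3f1 (-0.51, adjusted p = 0.138), Sst (-0.73, adjusted p = 0.201) and Prkcz (0.14, adjusted p = 0.219) missed the threshold. At 8 wk Spink8 was called higher in CAC, by 0.43 against Con and 0.59 against NCAC (limma, adjusted p = 0.0469 and 0.0285). Its CAC minus Con difference changed by 1.56 ± 0.23 from 2 to 8 wk (limma, adjusted p = 0.000217), the 1 gene called there. Of the 15 other thalamus genes tested, Adarb1 (0.36 ± 0.09) and Amotl1 (0.66 ± 0.17) were called higher in CAC at 2 wk against Con (list median 0.66, and 0.06 over all genes). Without replicate 1 of CAC both missed the threshold, at 0.14 and 0.28 (limma, adjusted p = 0.28 and 0.279). Over the mean of the 4 times Ramp3 (0.41), Slitrk6 (0.54) and Prkch (0.39) were called higher and Lhx2 lower (-0.16), which is 4 of 15 beside 19.8% of all genes. Without that library Ramp3 (0.23) and Slitrk6 (0.41) passed. Of 14 Wnt pathway genes tested, 1 was called at 2 wk (Znrf3, a ligase that removes Wnt receptors, 0.33 ± 0.07, and 0.29 ± 0.08 with an adjusted p of 0.103 without that library). At 8 wk Wnt3 (0.57) and the Wnt co-receptor Lrp6 (0.21) were higher, and Tcf7 (-0.57), Nkd1 (-0.44) and Notum (-0.72), a Wnt-inactivating enzyme, were lower, 5 of 14 beside 14.5% of all genes, where Tcf7l2 and Lef1 were not called. The Wnt list median at 8 wk was -0.17, against 0.05 over all genes.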

How the data were processed

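Polyadenylated RNA of 60 hippocampus samples was sequenced with a stranded kit, per the labels' protocols. The authors deposited 1 table of TPM, with the build mm10 per the submitters' processing notes; for aligner and counting tool nothing is given in the sources used here. The sum of TPM is 1000000 in each library, so a rise in abundant genes lowers the rest. Whole reads were recovered from the TPM steps for 24222 of 24227 genes (99.98%, tolerance 0.02 of a read), giving 31717025 to 41081457 reads per library, and no 2 libraries were identical.

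Genes with at least 1 TPM in at least 4 libraries were tested with limma (version 3.58.1, R 4.3.3). Input was log2(TPM + 0.5), fitted by group means of the 12 groups, a variance trend and Benjamini-Hochberg adjustment over 15608 genes (threshold 0.05). The pseudocount understates the change of low genes. The fit was checked on simulated data. Reads of near-identical copies cannot be separated. A few related genes are not reported here. The members and lists were chosen with earlier results of these data known. Named genes were all 10 members, and the 10 genes of highest and 3 of lowest r with their mean. From each neighbouring list those of highest and lowest r and markers near 0 were named, and the reticular list in full. For CAC against Con at 2 wk, list genes past the threshold were named. At other times those of the thalamus (mean of the 4 times) and Wnt (8 wk) lists were named, and Spink8. Alternatives changed pseudocount, filter, scaling, variance trend, libraries, a replicate block, and a trend on GC content and length (known for 96.5% of genes).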

Additional observations from a re-analysis of the deposited data

Results flagged for a closer look

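Within the 12 groups, 120 sets of a member's TPM values were searched for a library far from the rest of its group, judged by the gap to the nearest value as a share of the group's range. There were 13 such values, where chance gives about 1 in 20 sets. In replicate 1 of CAC at 2 wk 7 members were far above the other 3 libraries: Prkcd at 149 TPM, Rora at 49.0, Synpo2 at 16.0, Plekhg1 at 51.9, Rab37 at 17.9, Lef1 at 6.95 and Tnnt1 at 37.8. These are not independent, since the members were chosen for moving together.

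The other 6 were spread over 6 libraries. Zic1 was at 32.5 TPM in replicate 4 of CAC at 4 wk, with 4.71 to 9.67 TPM in its group. Rab37 was at 2.47 TPM in replicate 5 of Con at 4 wk (others up to 1.37), and Tnnt1 at 4.35 TPM in replicate 5 of Con at 6 wk (others up to 1.86). Prkcd was at 22.9 TPM in replicate 1 of Con at 6 wk (others up to 18.4) and at 15.5 TPM in replicate 2 of NCAC at 6 wk, below 23.7 to 25.1. Plekhg1 was at 7.54 TPM in replicate 3 of NCAC at 2 wk, below 10.6 to 11.8.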

How the results depend on the processing

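Of 152 counts of called members under other settings (19 comparisons), 140 stayed within 1.5 times the first count. Most of the 19 comparisons had a first count of 0, and a second 0 was taken as unchanged. The 140 therefore says little about how stable the calls were. For CAC against Con at 2 wk the count of 6 became 2 with no filter (298 genes called in all), 2 with the replicate block (280), 0 with only the groups compared (0 genes of all) and 1 once GC and length trends were removed (123), where 577 genes were called at first. With median-of-ratios scaling the genes called there were 75 higher and 424 lower, in place of 268 and 309. For CAC against NCAC over the 4 times the count of 1 became 0 with no filter, median-of-ratios scaling, no variance trend, the replicate block, only the groups compared, and GC and length correction. Plekhg1 made 1 call for Con at 8 against 2 wk with only the groups compared, and Tcf7l2 made 1 for the change of CAC against NCAC from 2 to 8 wk after GC and length correction.

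Leaving out each library in turn gave 0 to 8 members for CAC against Con at 2 wk, 1 to 2 for CAC against Con over the 4 times, 0 to 3 for CAC against NCAC over the 4 times, 0 to 1 for CAC against NCAC at 2 wk and 0 to 3 for its change from 2 to 8 wk; the last 2 reached 1 and 3 without replicate 2 of CAC at 2 wk. The median r of the members (0.694) was 0.406 as Spearman's rho, 0.340 without the 2 farthest libraries, and 0.409 without replicate 1 of CAC at 2 wk, an alternative chosen after seeing the data. No called difference changed sign. Replicate numbers did not pair the samples: over 56 same-numbered pairs the median correlation was -0.008, with 11 over 0.1. The cause of these changes was not tested. Low reads of Tnnt1 and Rab37 limit small differences.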
